A study of Mus musculus with 6 samples.

Results

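The Rgs genes described here encode regulators of G protein signalling. Rgs1, Rgs2, Rgs3, Rgs10, Rgs14, Rgs18 and Rgs19 were followed in blood mononuclear cells, as 7 of the 31253 genes in the count matrices. The genes were chosen by name, with measured differences between diabetic and control libraries already known from these data. Their differences between the groups are therefore given as a description, and no test on them is used as support. Their levels across cell types were not used in the choice, and these were tested. The T2D group held 3 libraries from male mice aged 12 to 13 weeks that had received streptozotocin, which destroys the beta cells of the pancreas, into the peritoneum, and the series title adds a high-fat diet. The Con group held 3 libraries from male mice of the same age that had received saline by the same route. The labels leave out the strain, the diet of the control mice and the number of mice behind each library. Errors and p-values therefore describe how the libraries scatter, and some of that scatter may be technical.

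RGS proteins shorten signals from G protein-coupled receptors. A receptor such as a chemokine receptor loads the G protein alpha subunit with GTP, and an RGS protein speeds the hydrolysis of that GTP, so that the alpha subunit rejoins the beta-gamma dimer and the signal stops. Rgs1, Rgs2, Rgs3 and Rgs18 belong to the small R4 family, in which Rgs1 is known to damp chemokine responses of lymphocytes and Rgs2 prefers the Gq alpha subunit. Rgs10 and Rgs14 belong to the R12 family, and Rgs14 also carries domains that bind Ras-like proteins and inactive Gi alpha subunits. Rgs19, also called GAIP, belongs to the RZ family.

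Messenger RNA molecules were counted by unique molecular identifiers (UMIs) in single cells. The matrices held 7404 to 9112 cell barcodes per library, with 29329361 to 32321855 UMIs in T2D libraries and 23574052 to 27157764 UMIs in Con libraries. Of 49407 barcodes, 49025 passed the filters on gene number and mitochondrial share, and 1127 barcode sequences occurred in more than 1 library. Cells were assigned to types by UMIs of marker genes, which include no Rgs gene, and 38787 cells (79.1%) fell in 1 of 11 gates. The 8 gates with at least 30 cells in every library were B (24107 cells), CD4 T without regulatory cells (4324), CD8 T (5891), NK (1002), classical monocyte (637), non-classical monocyte (981), neutrophil (921) and platelet (550). Eosinophils (92 cells), basophils (59 cells) and regulatory CD4 T cells (223 cells) were described only. Defining markers were where the gates placed them: Cd79a was at 679 CPM in B cells against 9.66 CPM in CD8 T cells, and Ncr1 was at 1139 CPM in NK cells against 1.14 CPM in CD8 T cells. The eosinophil gate was weaker, since Epx, a defining granule gene, had 11 UMIs in all cells. A level is given as CPM, a gene's UMIs per 1000000 UMIs of that gate in 1 library. Levels are compared between cell types and groups only, not between genes.

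On GRCm38 (mm10), 3 of the genes lie near each other on the minus strand of chromosome 1. Rgs2 spans chr1:143999338-144004161, Rgs1 spans chr1:144242296-144249242 and Rgs18 spans chr1:144752683-144775435. Rgs19 spans chr2:181688419-181693977 and Rgs10 spans chr7:128373621-128418758, both on the minus strand. Rgs3 spans chr4:62559847-62704001 and Rgs14 spans chr13:55369732-55384687, both on the plus strand. No other annotated gene covered the 3' end of a member. RefSeq promoter sequences (GRCm38.p6, from 250 bases before to 50 bases after a start site) matched 4 of the 7 symbols. Those of Rgs2 and Rgs10 are shown because Rgs2 was the member whose T2D and Con values lay apart in the most gates and Rgs10 had a sharp split between T cells and other lymphocytes. Capitals mark matches on either strand to the GC box GGGCGG and to the letters CCAAT. The Rgs2 window is chr1:144004100-144004399 and the Rgs10 window is chr7:128418123-128418422, each printed 5' to 3' along the minus strand.
Rgs2: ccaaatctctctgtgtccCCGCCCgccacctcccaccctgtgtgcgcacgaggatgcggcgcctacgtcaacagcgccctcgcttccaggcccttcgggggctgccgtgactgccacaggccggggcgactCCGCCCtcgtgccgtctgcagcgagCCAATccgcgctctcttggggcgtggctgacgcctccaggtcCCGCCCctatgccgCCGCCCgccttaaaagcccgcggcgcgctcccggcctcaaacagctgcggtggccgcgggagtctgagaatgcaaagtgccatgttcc
Rgs10: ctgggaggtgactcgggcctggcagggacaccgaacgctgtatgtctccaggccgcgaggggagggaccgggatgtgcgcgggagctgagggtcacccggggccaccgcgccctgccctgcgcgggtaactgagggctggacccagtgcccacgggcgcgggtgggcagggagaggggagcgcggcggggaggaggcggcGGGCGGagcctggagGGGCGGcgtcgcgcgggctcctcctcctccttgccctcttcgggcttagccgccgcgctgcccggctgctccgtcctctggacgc
The Rgs2 window held 4 GC boxes and 1 CCAAT, and the Rgs10 window held 2 GC boxes and no CCAAT. Among 32851 promoters of the same length, 35.7% held a GC box and 37.4% held CCAAT. Neither window held TGACGTCA (1.79% of promoters), TGANTCA (7.81%), CACGTG (7.15%) or TATAAA (13.6%). The base composition of the windows was 70% G or C for Rgs2 and 76% for Rgs10.

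Each of the 7 genes had its own distribution over blood cells. Rgs1 was highest in basophils, eosinophils and NK cells, Rgs2 in granulocytes and non-classical monocytes, and Rgs3 in NK cells. Rgs10 and Rgs18 were highest in platelets, Rgs14 in eosinophils, and Rgs19 in basophils, neutrophils and monocytes. Against the mean of the other 7 tested gates, 40 of 48 tests of the 6 genes other than Rgs3 passed adjusted p under 0.05 (edgeR's quasi-likelihood test with the library as a block). Such contrasts are the rule between cell types: of 9116 genes tested, 75.2% were called in B cells, 71.8% in CD4 T cells, 73.8% in CD8 T cells, 57.3% in NK cells, 62.4% in classical monocytes, 55.5% in non-classical monocytes, 64.1% in neutrophils and 51.3% in platelets. The median contrast over all genes was -0.84 in platelets, -0.16 in neutrophils and between 0.14 and 0.21 in the other gates, on the log2 scale. Contrasts of members near those medians are no departure from the typical gene.

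**Figure D1:**
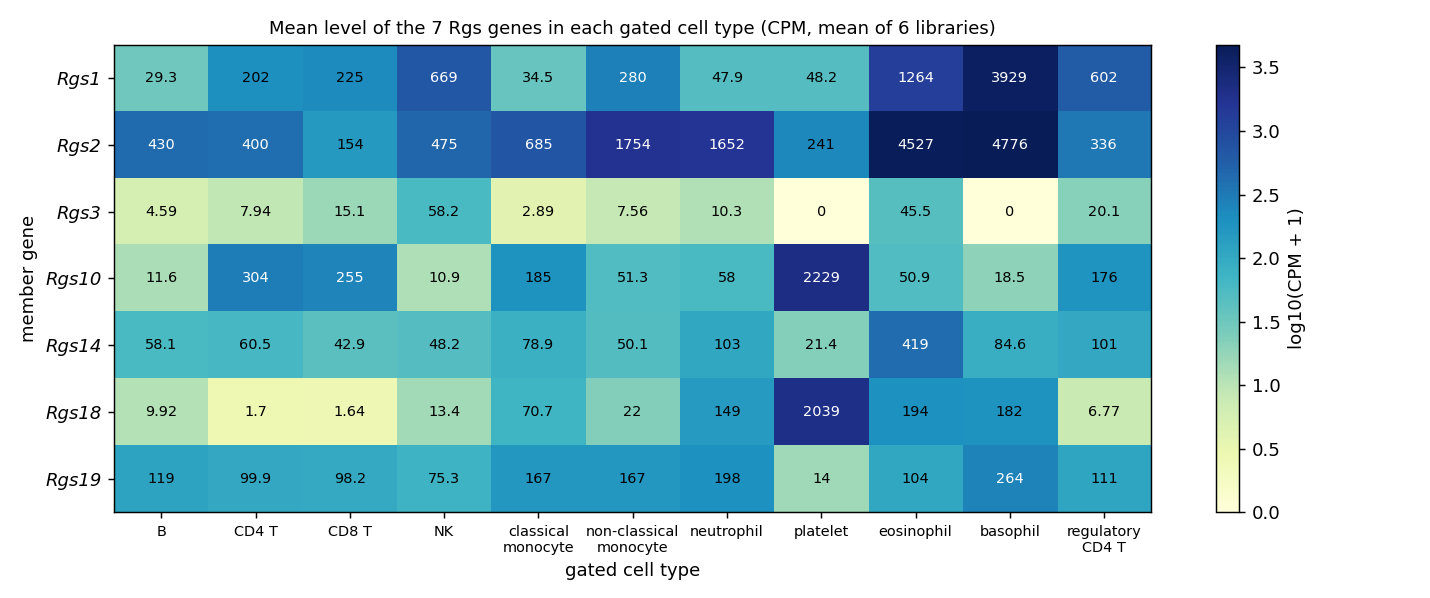
Mean CPM of 6 libraries for each of the 7 Rgs genes (rows) in 11 gated cell types (columns), with colour on a log10(CPM + 1) scale and the mean CPM printed in each cell. Rgs10 (2229 CPM) and Rgs18 (2039 CPM) peaked in platelets, and Rgs1 and Rgs2 in basophils.

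Rgs1 averaged 3929 ± 1595 CPM in basophils, 1264 ± 1209 CPM in eosinophils and 669 ± 195 CPM in NK cells (SD, n = 6 libraries, as for all means over cell types). Regulatory CD4 T cells followed with 602 ± 371 CPM and non-classical monocytes with 280 ± 75.3 CPM. CD8 T cells had 225 ± 63.7 CPM and CD4 T cells 202 ± 17.4 CPM. Neighbours in this order overlapped over the libraries down to CD4 T cells, whose lowest library (183 CPM) lay above the highest platelet library (82.1 CPM). Platelets, neutrophils and classical monocytes had 48.2, 47.9 and 34.5 CPM, and B cells were lowest with 29.3 ± 5.87 CPM. In the fit, Rgs1 in NK cells exceeded the mean of the other gates by 2.57 ± 0.14 on the log2 scale (SE, edgeR adjusted p = 9.2e-19), and in B cells it lay at -2.39 ± 0.21 (edgeR adjusted p = 1.2e-12). Within the CD8 T gate, Rgs1 was higher in cells with effector genes (Ccl5, Nkg7 and Gzmk) than in cells with none of them, in each of the 6 libraries.

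Rgs2 was highest in granulocytes and monocytes. It averaged 4776 ± 3303 CPM in basophils and 4527 ± 1134 CPM in eosinophils, followed by non-classical monocytes with 1754 ± 167 CPM and neutrophils with 1652 ± 261 CPM. Classical monocytes had 685 ± 135 CPM, below every neutrophil library. NK, B and CD4 T cells lay together at 475, 430 and 400.3 CPM with overlapping libraries, and CD8 T cells were lowest with 154 ± 16.5 CPM. The contrast was 2.46 ± 0.10 in neutrophils (edgeR adjusted p = 3.4e-25) and -2.20 ± 0.12 in CD8 T cells (edgeR adjusted p = 1.9e-19). The platelet contrast of -0.83 lay close to that of the median gene there.

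Rgs10 and Rgs18 shared the platelet as their highest cell type and differed in lymphocytes. Rgs10 averaged 2229 ± 355 CPM in platelets, above CD4 T cells with 304 ± 26.5 CPM and CD8 T cells with 255 ± 21.6 CPM. B and NK cells had 11.6 ± 2.42 and 10.9 ± 3.84 CPM, so that Rgs10 was 23.4 times as high in CD8 T cells as in NK cells. Classical monocytes had 185 ± 25.7 CPM against 51.3 ± 12.3 CPM in non-classical monocytes, with no overlap between libraries. The Rgs10 contrast was 5.60 ± 0.09 in platelets (edgeR adjusted p = 2.5e-64) and -4.15 ± 0.19 in NK cells (edgeR adjusted p = 3.3e-32).

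Rgs18, known in mouse as a regulator of platelet activation, averaged 2039 ± 234 CPM in platelets, and every platelet library (1805 CPM or more) lay above every other gate. Neutrophils had 149 ± 54.2 CPM, classical monocytes 70.7 ± 11.4 CPM and non-classical monocytes 22.0 ± 7.95 CPM. CD4 and CD8 T cells had 1.70 and 1.64 CPM, each resting on few UMIs (0 to 12 per library). The Rgs18 contrast was 7.74 ± 0.10 in platelets (edgeR adjusted p = 2.1e-72) and -4.67 ± 0.21 in CD8 T cells (edgeR adjusted p = 1.5e-34).

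Rgs3 averaged 58.2 ± 9.36 CPM in NK cells, 15.1 ± 2.17 CPM in CD8 T cells and 4.59 ± 0.78 CPM in B cells, and had no UMI in platelets or basophils. Since a gate at 0 makes a contrast depend on the count model, Rgs3 was compared without the platelet gate, a choice made after seeing the data: NK cells then exceeded the mean of the other leukocyte gates by 2.66 ± 0.18 (edgeR adjusted p = 5.9e-22, 54.9% of genes called). Rgs14 averaged 419 ± 106 CPM in eosinophils, where every library lay above the neutrophil libraries (103 ± 28.4 CPM on average). In the other leukocytes Rgs14 stayed between 42.9 CPM in CD8 T cells and 101 CPM in regulatory CD4 T cells. Rgs19 averaged 264 ± 99.4 CPM in basophils, 198 ± 37.6 CPM in neutrophils, and 167 CPM in each monocyte gate, with 75.3 ± 9.16 CPM in NK cells and 14.0 ± 15.4 CPM in platelets. The Rgs19 contrast was 1.85 ± 0.10 in neutrophils (edgeR adjusted p = 4.9e-30) and -2.72 ± 0.37 in platelets (edgeR adjusted p = 9.5e-10).

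The likeness of other genes to each member was measured as the Pearson correlation of log2(CPM + 10) over the 11 gates, among 6413 genes with at least 50 CPM in some gate. These values describe the same libraries and gates, which differ in depth, and a gene that peaks in 1 small gate scores high. The genes most like Rgs1 were Dusp5 (r = 0.93), Gm10130 (0.90) and 2900060B14Rik (0.90), all highest in basophils. Those most like Rgs2 were Spty2d1 (0.95), Sqstm1 (0.92) and Tbc1d8 (0.92), and those most like Rgs3 were Lta4h (0.92), Gramd1b (0.91) and Smad3 (0.91). Rgs10 was most like Cyb5a (0.92), Igtp (0.90) and Hipk2 (0.87), and Rgs18 most like H2bc4 (0.97), Vcl (0.97) and Map2k3 (0.97), all highest in platelets. Rgs14 was most like Bbip1 (0.98), Vrk1 (0.94) and Agrn (0.93), and Rgs19 most like Zfp217 (0.94), Ist1 (0.94) and Hspa5 (0.94). Among the 7 members themselves, the highest correlation was 0.67, between Rgs2 and Rgs14, and the lowest was -0.67, between Rgs10 and Rgs19.

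The comparison of T2D with Con asked how each brake gene stood in the diabetic mice, cell type by cell type. The differences between groups were small next to those between cell types, and they varied between genes and between cell types. Rgs1 was lower in T2D CD8 T and NK cells, while Rgs2 was lower in T2D B cells and higher in T2D classical monocytes. The fit across all genes (edgeR, adjusted p under 0.05) called 4 of 45 member tests. Because the genes were chosen with such results known, nothing is read from that count. Of all genes tested, 3.84% were called in CD8 T cells, 0.540% in NK cells, 1.61% in B cells and 0.829% in classical monocytes. No member was called in CD4 T cells (5.82% of all genes called), non-classical monocytes (0.767%), neutrophils (3.12%) or platelets (0%), by edgeR or by DESeq2. In those 4 gates 1, 1, 2 and 2 members had an unadjusted edgeR p under 0.05, and in platelets 118 of 1339 genes had one while DESeq2 also called 0.

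The T2D and Con libraries did not overlap in 10 of the 45 member tests. That was 1 of 7 members in B cells (20.1% of all genes tested there), 0 of 6 in CD4 T cells (23.8%) and 1 of 6 in CD8 T cells (22.7%). It was 1 of 5 in NK cells (13.2%), 2 of 6 in classical monocytes (13.6%) and 2 of 6 in non-classical monocytes (13.8%). In neutrophils it was 2 of 6 (17.6%) and in platelets 1 of 3 (15.3%).

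**Figure D2:**
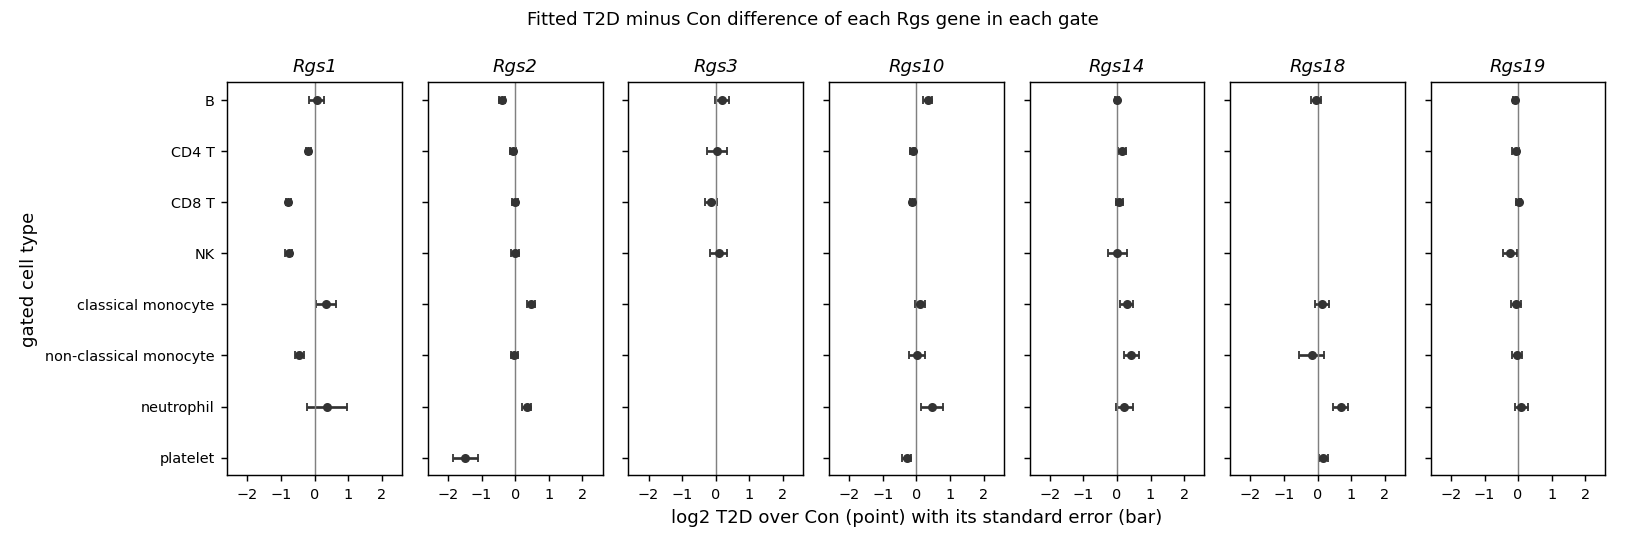
Fitted log2 T2D over Con (points) with its standard error (bars) for each Rgs gene (panels) in the 8 tested gates (rows), where a missing point is a gene below the filter on low counts. Rgs1 lies at -0.78 in CD8 T cells and -0.77 in NK cells, Rgs2 lies at -0.39 in B cells and 0.47 in classical monocytes, and the Rgs19 points lie between -0.24 and 0.10.

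Rgs1, the chemokine-response brake of lymphocytes, had 177, 183 and 148 CPM in T2D CD8 T cells, against 279, 302 and 263 CPM in Con CD8 T cells. Every T2D library lay below every Con library, with a log2 difference of -0.78 ± 0.08 (SE). In NK cells it had 450, 553 and 491 CPM in T2D libraries and 893, 759 and 867 CPM in Con libraries, again without overlap, with a log2 difference of -0.77 ± 0.11. Over the 12 alternative settings the log2 differences lay between -0.88 and -0.67 in CD8 T cells and between -0.85 and -0.70 in NK cells. In CD4 T cells the values were 183, 215 and 185 CPM in T2D and 191, 216 and 221 CPM in Con, which overlap (-0.18 ± 0.09). T cells with effector genes but no UMI of Cd4 or Cd8 were few, at 17 to 60 per library. Their Rgs1 values also overlapped, at 318, 479 and 193 CPM in T2D and 522, 457 and 499.5 CPM in Con.

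The lower Rgs1 level was present in both kinds of CD8 T cell that were set apart by effector genes, a split made after seeing the data. Effector CD8 T cells had 243, 227 and 179 CPM in T2D, against 395, 421 and 337 CPM in Con. CD8 T cells without effector genes had 123, 152 and 80.2 CPM in T2D, against 173, 222 and 190.1 CPM in Con. Effector cells, in which Rgs1 was higher, made up 44.7%, 45.9% and 44.9% of CD8 T cells in T2D libraries and 31.1%, 34.5% and 35.2% in Con libraries. Cells without effector genes made up 13.3%, 10.4% and 12.0% of CD8 T cells in T2D libraries and 15.7%, 18.6% and 17.5% in Con libraries. The remaining CD8 T cells, with fewer effector UMIs, are in neither subset, and the part of these shares in the Rgs1 difference was not tested.

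The lower level showed in the number of cells with a UMI and in UMIs per such cell. With every cell thinned to 1000 UMIs (36 T2D and 20 Con CD8 T cells, and 17 T2D and 9 Con NK cells, with fewer were left out), 13.8% ± 0.91 of T2D CD8 T cells and 21.5% ± 1.89 of Con CD8 T cells had an Rgs1 UMI (SD, n = 3 libraries each). Among NK cells the thinned shares were 30.5% ± 1.10 in T2D and 43.4% ± 1.78 in Con. Without thinning, they were 39.3% in T2D and 53.7% in Con CD8 T cells, and 54.8% in T2D and 66.5% in Con NK cells. In B cells, where Rgs1 was lowest, the thinned shares were 2.54% in T2D and 2.22% in Con, and the median B cell held 2767 UMIs against 4461 for CD8 T cells and 3012 for NK cells. Positive NK cells carried a mean of 2.81 Rgs1 UMIs in T2D and 4.08 in Con, unthinned, and positive CD8 T cells 1.95 in T2D and 2.46 in Con.

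Outside the lymphocytes, Rgs1 in non-classical monocytes had 203, 229 and 260.1 CPM in T2D and 297, 418 and 274 CPM in Con. The groups lay apart by a narrow margin, with a log2 difference of -0.45 ± 0.14. In 1 T2D library the transcripts of B cells (Ighm, Igkc, Cd74 and class II genes) reached 14610 CPM in this gate, against 2590 to 4526 CPM in the other 5 libraries. Eosinophils had 9, 3 and 3 Rgs1 UMIs in T2D and 39, 12 and 58 in Con, from 10 to 21 cells per library. B cells had 21.2 to 35.0 CPM in T2D and 23.7 to 33.1 CPM in Con, with overlap.

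Some genes that respond quickly to stimulation or handling of cells were lower in T2D in CD8 T, NK and CD4 T cells. Of a list of 22 such immediate-early genes, which holds neither Rgs1 nor Rgs2, none rose and 6 of 22 tested fell in CD8 T cells (3.84% of all genes called there), and none rose and 4 of 18 fell in NK cells (0.540%) by edgeR at adjusted p under 0.05. Nr4a3, an orphan nuclear receptor gene induced by antigen receptor signals and named after its values were seen, fell by 1.28 ± 0.16 in CD8 T cells (edgeR adjusted p = 9.9e-06) and by 1.23 ± 0.25 in NK cells (edgeR adjusted p = 0.0045) on the log2 scale. The summed list stood at 5422 to 6181 CPM in T2D CD8 T cells and 6318 to 6999 CPM in Con CD8 T cells. In NK cells it stood at 10370 to 11560 CPM in T2D and 10780 to 12950 CPM in Con, which overlap. CD4 T cells had 6562 to 7693 CPM of the list in T2D and 8481 to 8538 CPM in Con, without overlap. In CD4 T cells, where Rgs1 overlapped between the groups, 6 of 20 fell and none rose (5.82% of all genes called), and Nr4a3 fell by 2.50 ± 0.17 (edgeR adjusted p = 2.5e-07). The part of these genes in the Rgs1 difference was not tested. The immediate-early list was also chosen with earlier results of these data known, so its counts and p-values, here and below, are a description.

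**Figure D3:**
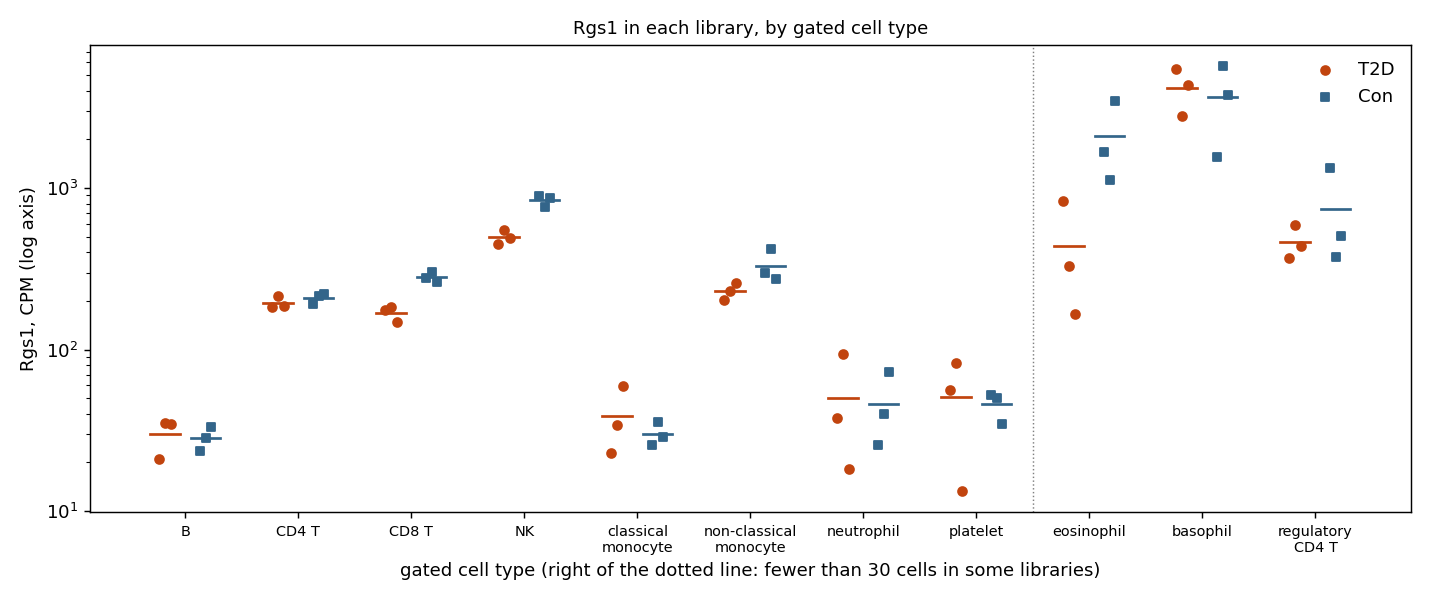
Rgs1 in CPM (log axis) in each T2D library (circles) and Con library (squares), with the group mean as a line, in 11 gated cell types. The T2D libraries lie below the Con libraries in CD8 T cells (148 to 183 against 263 to 302 CPM) and NK cells (450 to 553 against 759 to 893 CPM), and overlap with them in B and CD4 T cells.

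Rgs2, the brake with a preference for Gq, had 355, 418 and 350.3 CPM in T2D B cells, against 463, 467 and 526 CPM in Con B cells. The groups did not overlap, and the log2 difference was -0.39 ± 0.08. In classical monocytes the order was turned round, with 815, 825 and 747 CPM in T2D and 558, 502 and 664 CPM in Con (0.47 ± 0.11). Over the 12 alternative settings the log2 differences lay between -0.49 and -0.32 in B cells and between 0.35 and 1.35 in classical monocytes. Rgs2 was called in 6 of the 12 in B cells and 5 in classical monocytes, while Rgs1 was called in all 12 in CD8 T and NK cells. With 1 library left out, Rgs2 was called in 1 of 6 fits in B cells and 2 of 6 in classical monocytes. All these fits reuse the same libraries, and the members were chosen with such results known. The counts therefore describe how the calls depend on the setting and add no support for either gene. The thinned share of classical monocytes with an Rgs2 UMI was 41.6% ± 0.40 in T2D and 37.9% ± 14.1 in Con, with overlap.

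In B cells Rgs2 was lower in every T2D library than in every Con library in each of 6 overlapping subsets, which were set after seeing the data. The subsets are cuts of the same B gate, so their separation is not independent of the whole gate and adds no support. The share of all genes without overlap was 20.1% in the B gate and was not counted in the subsets. B cells with Cr2, a complement receptor of mature B cells, had 340 to 411 CPM in T2D and 442 to 502 CPM in Con. B cells with Fcrl5 or Bhlhe41 had 270.2 to 330 CPM in T2D and 364 to 426 CPM in Con. B cells with Cd83, an activation marker, had 352 to 401 CPM in T2D and 448 to 504 CPM in Con, and those without it 349 to 434 CPM in T2D and 469 to 547 CPM in Con. The thinned share of B cells with an Rgs2 UMI was 25.7% ± 2.47 in T2D and 30.4% ± 2.11 in Con (SD, n = 3 each), and the libraries overlapped. The immediate-early list summed to 8627 to 8848 CPM in T2D B cells and 9848 to 11290 CPM in Con B cells, with none of 22 genes risen and 3 fallen (1.61% of all genes called). Its part in the Rgs2 difference was not tested.

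In classical monocytes 2 of 19 immediate-early genes rose and 1 fell (0.829% of all genes called). The summed list overlapped there between T2D (19500 to 24160 CPM) and Con (19920 to 23650 CPM). Neutrophils had 1752, 2000 and 1853 CPM of Rgs2 in T2D, against 1564, 1400 and 1341 CPM in Con, a difference of 0.34 ± 0.14 without overlap. The immediate-early list stood at 28780 to 31690 CPM in T2D neutrophils and 31960 to 49230 CPM in Con neutrophils, apart by a narrow margin. Its part in the Rgs2 differences of classical monocytes and neutrophils was not tested. Non-classical monocytes, the tested gate with the highest Rgs2 level, had 1785, 1887 and 1543 CPM in T2D and 1890, 1874 and 1545 CPM in Con, which overlap closely (-0.03 ± 0.10).

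Platelets had 6, 22 and 10 UMIs of Rgs2 in T2D (56.6, 181 and 133 CPM), against 41, 38 and 23 UMIs in Con (534, 274 and 266 CPM). The libraries did not overlap, with a log2 difference of -1.48 ± 0.38 that rests on these low counts. Immediate-early genes in the platelet gate summed to 1264 to 3364 CPM in T2D and 2175 to 5305 CPM in Con, and their part was not tested. Eosinophils had 4235, 3168 and 3549 CPM of Rgs2 in T2D and 5145, 6286 and 4781 CPM in Con, from few cells.

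**Figure D4:**
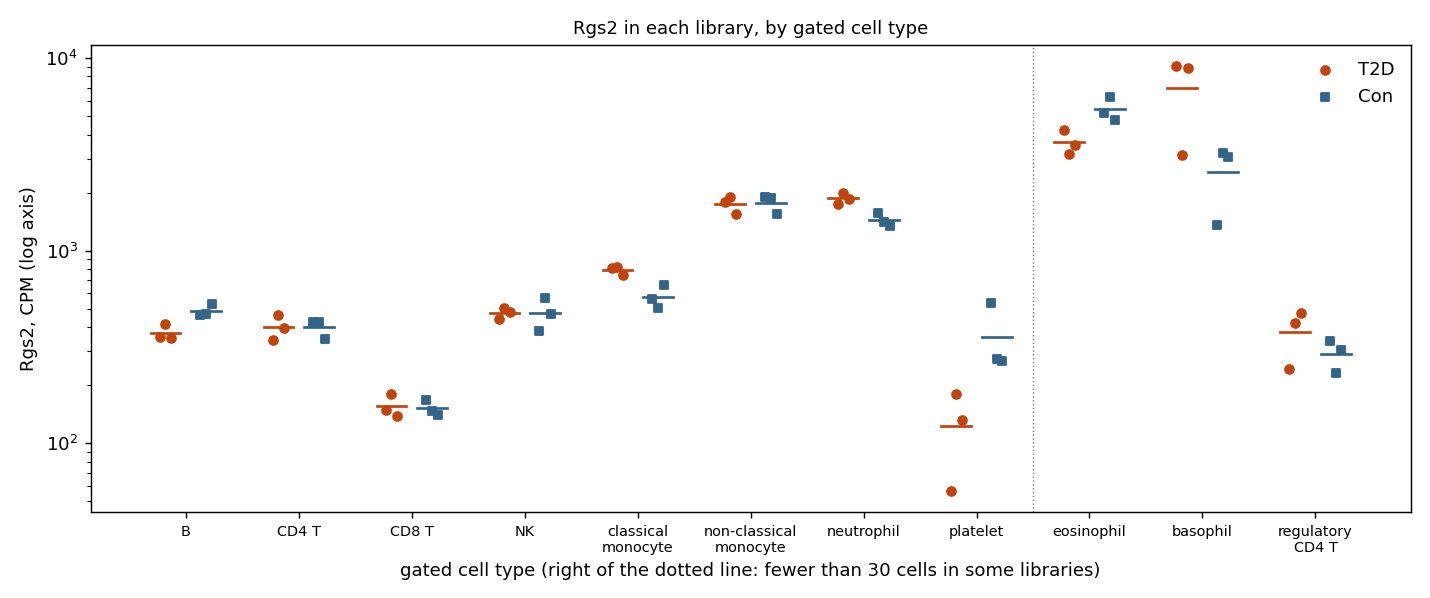
Rgs2 in CPM (log axis) in each T2D library (circles) and Con library (squares), with the group mean as a line, in 11 gated cell types. T2D libraries lie below Con libraries in B cells and platelets, above them in classical monocytes and neutrophils, and among them in CD4 T, CD8 T, NK and non-classical monocyte cells.

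Rgs18 in neutrophils had 209, 224 and 129 CPM in T2D and 113, 121 and 95.0 CPM in Con, without overlap (0.69 ± 0.23). In platelets, where it was highest, Rgs18 had 2018, 2002 and 2488 CPM in T2D and 1916, 2004 and 1805 CPM in Con, with overlap (0.17 ± 0.13). Rgs10 in platelets had 2235, 1690 and 2088 CPM in T2D and 2516, 2134 and 2708 CPM in Con, with overlap (-0.29 ± 0.14). In the whole T cell gates Rgs10 overlapped between the groups (-0.10 ± 0.08 in CD4 T cells and -0.12 ± 0.07 in CD8 T cells). The CD8 T subsets lay apart by narrow margins in opposite directions, which was not tested. Effector CD8 T cells had 163, 190 and 230 CPM in T2D and 239, 235 and 233 CPM in Con. CD8 T cells without effector genes had 257, 247 and 313 CPM in T2D and 210 to 241 CPM in Con. The share of all genes without overlap was not counted in these subsets. Regulatory CD4 T cells, a small gate, had 231, 231 and 265 CPM of Rgs10 in T2D against 73.1, 86.6 and 172 CPM in Con, and the Con values rest on 3, 3 and 13 UMIs.

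Rgs14 was higher without overlap in the T2D libraries of both monocyte gates. Classical monocytes had 86.3, 89.5 and 85.0 CPM in T2D and 85.0, 69.7 and 57.9 CPM in Con, where the nearest libraries of the groups agreed to 3 digits (0.29 ± 0.19). Non-classical monocytes had 58.5, 64.4 and 59.9 CPM in T2D and 53.4, 25.2 and 39.1 CPM in Con (0.43 ± 0.23). In B cells, where it was counted most deeply, Rgs14 had 58.6, 58.5 and 58.4 CPM in T2D and 59.2, 57.0 and 57.1 CPM in Con, a difference of 0.00 ± 0.06. Rgs3 in NK cells, its highest gate, had 55.4, 61.7 and 62.7 CPM in T2D and 42.5, 70.4 and 56.4 CPM in Con, with overlap (0.08 ± 0.25). In classical monocytes Rgs3 had 3, 5 and 3 UMIs in T2D and 1, 1 and 0 in Con, below the filter for a fit. Rgs19 overlapped between the groups in all 8 tested gates.

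Receptors and partners of the same pathway were read from lists of chemokine and other leukocyte receptors, G protein subunits, receptor kinases and arrestins, effectors and other Rgs genes. These lists were chosen with earlier results of these data known, so their counts and p-values, here and below, are a description and no independent support. In 302 tests over the 8 gates, 19 passed adjusted p under 0.05 (edgeR), 16 higher and 3 lower in T2D. Counts by gate, each with the share of all genes called there, were 3 of 54 in B cells (1.61%), 6 of 45 in CD4 T cells (5.82%) and 6 of 47 in CD8 T cells (3.84%). They were 2 of 29 in NK cells (0.540%), 1 of 38 in classical monocytes (0.829%) and 1 of 36 in neutrophils (3.12%). In non-classical monocytes 0 of 39 (0.767%) and in platelets 0 of 14 (0%) passed in edgeR or DESeq2, with 1 and 3 at an unadjusted edgeR p under 0.05. The median log2 difference of the lists lay between -0.02 in non-classical monocytes and 0.07 in CD4 T cells, and that of all genes was within 0.01 of 0 in each gate. Without Con library 1 the fit called 9, and under a strict gate with no UMI of another lineage it called 11. Of the 19 calls, 16 were receptors and 3 were G protein subunits.

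In CD8 T cells, where Rgs1 was lower in T2D, Cxcr3, a receptor for interferon-induced chemokines, had 75.2, 82.6 and 81.9 CPM in T2D and 47.2, 66.7 and 51.2 CPM in Con (0.49 ± 0.10, edgeR adjusted p = 0.0054), a call that was lost without Con library 1 and under the strict gate. Cxcr6, Ccr2 and the G alpha subunit gene Gna15 also rose (0.83 ± 0.18, 1.40 ± 0.26 and 0.77 ± 0.19, edgeR adjusted p = 0.010, 0.049 and 0.021), and each lost its call in 2 or more of the fits that left out 1 library. The share of effector CD8 T cells given above moved with these genes, and its part in them was not tested.

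In CD4 T cells Cxcr3 rose to 46.3, 45.1 and 61.3 CPM in T2D, against 8.40, 13.6 and 10.1 CPM in Con (2.18 ± 0.19, edgeR adjusted p = 1.1e-09). Ccr2 (1.73 ± 0.36), Ccr6 (1.37 ± 0.34), Gna15 (1.20 ± 0.35) and Gng2 (0.53 ± 0.14) passed as well, and each was lost in at least 2 of the 6 leave-one-out fits. P2ry10, a receptor for lysophospholipids, fell in CD4 T cells (392, 469 and 495 CPM in T2D against 564, 673 and 626 CPM in Con; -0.53 ± 0.08, edgeR adjusted p = 4.4e-05). It fell likewise in CD8 T cells (-0.50 ± 0.07, edgeR adjusted p = 3.3e-05) and NK cells (-0.63 ± 0.12, edgeR adjusted p = 0.0022). The NK cell call of P2ry10 was lost without Con library 2 and under the strict gate.

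In NK cells Cx3cr1, the fractalkine receptor gene, had 274, 412 and 266 CPM in T2D and 207, 170.0 and 177 CPM in Con (0.76 ± 0.16, edgeR adjusted p = 0.0057), a call that was lost in 3 of 6 leave-one-out fits. In B cells S1pr1, the receptor for the egress signal sphingosine 1-phosphate, had 246, 320.1 and 303 CPM in T2D and 177, 213 and 194 CPM in Con (0.56 ± 0.11, edgeR adjusted p = 0.043). Gpr183, an oxysterol receptor gene, rose by 0.46 ± 0.08 in B cells (edgeR adjusted p = 0.016), and both B cell calls were lost in 3 of 6 leave-one-out fits. Cxcr3 in B cells also rose (1.03 ± 0.18), with 9.12 to 14.5 CPM in T2D and 5.21 to 5.87 CPM in Con. That call was lost under the strict gate, and also when only cells with 1000 to 10000 UMIs were used. In neutrophils Cxcr1 had 50.2, 59.1 and 47.6 CPM in T2D and 8.53, 14.9 and 0 CPM in Con (2.30 ± 0.45, edgeR adjusted p = 0.0026). The Con values rest on few UMIs, since 3 UMIs equal 6.40, 4.96 and 16.8 CPM in those Con libraries.

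**Figure D5:**
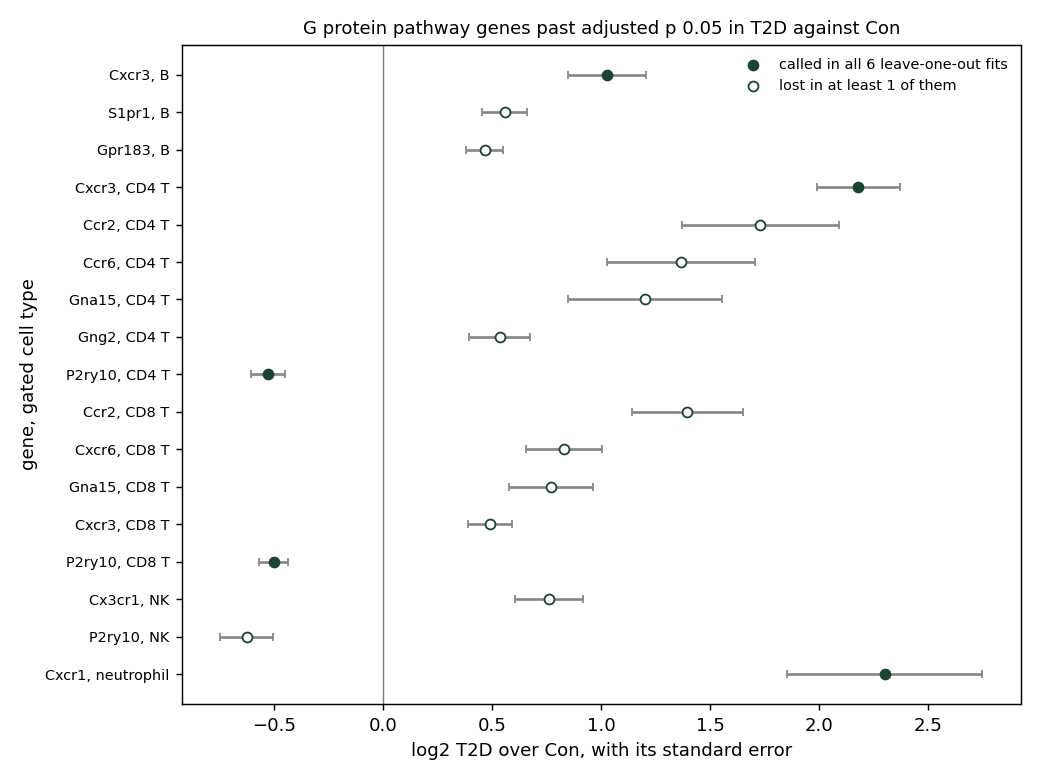
Fitted log2 T2D over Con with its standard error for 17 of the 19 pathway tests past adjusted p 0.05 (edgeR). Filled points kept the call in all 6 fits that left out 1 library and open points lost it in at least 1, and 14 of the 17 lie above 0.

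Gnai2, Gnai3 and Gnaq, which encode alpha subunits that RGS proteins act on, passed no test in any gate. Gnai2, which encodes the main Gi alpha subunit of leukocytes, lay between -0.07 ± 0.10 in classical monocytes and 0.12 ± 0.07 in CD4 T cells, and it was called in none of the 8 gates (edgeR adjusted p = 0.36 at the lowest). Gnai3 lay between -0.28 ± 0.14 in NK cells and 0.11 ± 0.16 in neutrophils in the 7 gates where it was tested, with no call. Gnaq, which encodes the Gq alpha subunit, lay between -0.57 ± 0.23 in neutrophils and 0.63 ± 0.23 in platelets, with no call. Cxcr4, the chemokine receptor of bone marrow homing, lay at -0.26 ± 0.07 in B cells (edgeR adjusted p = 0.067) and passed in no gate. S1pr1 passed in B cells alone among the 6 gates where it was tested, and the difference between gates was not tested. Of the 14 other Rgs genes, Rgs11, Rgs12 and Rgs13 were tested in B cells, Rgs11 in CD4 T cells, and Rgs11, Rgs12 and Rgs16 in CD8 T cells, with no call. Rgs13 in B cells lay at -1.12 ± 0.39 (edgeR adjusted p = 0.16).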

How the data were processed

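Single-cell libraries were made with a whole-transcriptome bead assay that reads 3' ends with a cell label and a UMI, per the labels' protocols. Per the submitters' processing notes, the tools included UMI-tools, CASAVA 1.8 and Seurat, with mm10 as the build, and the deposited matrices hold UMI counts per gene and cell that were not normalized. Barcodes under 200 detected genes, or above 20% of UMIs from mitochondrial genes, were dropped. Gates required UMIs of a lineage's markers and at most 1 UMI of other lineages, or at least 80% own-lineage marker UMIs. The gates were set with the data in view, and no doublet caller was run. Cells with mixed markers beyond these limits fell in no gate, and doublets within them may remain. UMIs were summed per library and gate. edgeR 4.0.16 (quasi-likelihood test, TMM, filterByExpr, Benjamini-Hochberg adjustment over all genes of a gate, R 4.3.3) gave T2D minus Con. DESeq2 1.42.0 was an alternative. Contrasts between gates used the library as a block. Python 3.11.15 was used elsewhere. The fit was tested on simulated data. The members and the gene lists were chosen with earlier results of these data known. Named genes were the 7 members, pathway genes past the threshold (at most 6 per gate), Gnai2, Gnai3, Gnaq, Cxcr4 and S1pr1, and the 3 genes most like each member. Of the pathway calls, 2 are counted but not reported here by gene. Other settings changed the scaling, filter, tool, gate, cell depth, thinning and libraries.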

Additional observations from a re-analysis of the deposited data

Results flagged for a closer look

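Rgs2 was flagged because its T2D and Con libraries lay apart in opposite directions in different cell types. Every T2D library lay below every Con library in B cells (log2 difference -0.39) and in platelets (-1.48, on low counts). Every T2D library lay above every Con library in classical monocytes (0.47) and neutrophils (0.34). Of all genes tested, 20.1% lay apart in B cells, 15.3% in platelets, 13.6% in classical monocytes and 17.6% in neutrophils. The share of genes that lie apart in both directions was not counted. The difference between these cell types was not tested, and Rgs2 was among the genes chosen with such results known.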

How the results depend on the processing

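The fit called 4 member tests between T2D and Con, and 3 to 5 under other scalings, filters, tools, gates and cell depths. Leaving out 1 library gave 2 to 4, with 2 without Con library 1 and 2 without T2D library 1. The pathway lists gave 19 calls, 29 with no filter on low counts, 11 under the strict gate and 9 to 22 with 1 library left out. Calls over all genes moved as well, from 68 to 590 in B cells and 256 to 687 in CD4 T cells. They ranged over 125 to 569 in CD8 T cells, 3 to 43 in NK cells and 4 to 92 in classical monocytes. Neutrophils had 37 to 198, non-classical monocytes 11 to 93 and platelets 0 to 15. The cause of these moves was not tested, and nothing is read from the member counts. Deviations of same-numbered libraries from their group means correlated at -0.03 to 0.14, and those of differently numbered libraries at -0.20 to 0.17. Such values cannot decide whether the libraries were paired. A replicate block gave 6 member calls and 28 pathway calls. Contrasts between gates gave 44 calls of 56, between 32 under the strict gate and 45. Leaving out the platelet gate, a choice made after seeing the data, changed the sign of 5 contrasts, to 0.34 for Rgs10 in neutrophils, 0.79 for Rgs18 in non-classical monocytes, -0.23 for Rgs19 in B cells, and -0.52 and -0.51 for Rgs3 in CD4 T cells and non-classical monocytes. By construction that setting removes platelets from the mean that each gate is set against. The T2D minus Con difference in the share of CD8 T cells with an Rgs1 UMI was -7.68 points, and -14.4 points without thinning. Platelets and eosinophils held few UMIs per cell, which limits every value there.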
